A study of Mus musculus with 19 samples.

Results

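Cells make cholesterol and fatty acids from the same acetyl units, and 31 genes of these routes and of their control by the SREBP transcription factors are described here in differentiating mouse muscle cells. The 31 were picked by name for their known place in the pathway from 35598 genes quantified, with earlier results of these data known. All 31 were abundant enough to be tested, among 15123 genes tested in all. They comprise 8 genes of the mevalonate and isoprenoid steps, 11 of the steps from squalene to cholesterol, 5 for the SREBP proteins and their regulators, 3 of sterol transport and 4 of fatty acid synthesis.

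The RNA came from primary myoblasts of mouse hind-limb muscle, which are cultured muscle precursor cells that stop dividing, differentiate and fuse into multinucleate myotubes. Libraries of polyadenylated RNA were taken from proliferating myoblasts after 24 h in growth medium, from differentiated myotubes at 48 h and from fused myotubes at 72 h. Cells labelled wild type (WT) gave 3 libraries at 24 h, 3 at 48 h and 4 at 72 h, and cells labelled Glud1KO, described as deficient in Glud1, gave 3, 2 and 4. Glud1 encodes glutamate dehydrogenase, a mitochondrial enzyme that converts glutamate to 2-oxoglutarate. The labels do not say how or in which cells Glud1 was removed, whether a Cre or a treatment was used, or how old the mice were. They number the libraries as biological replicates without saying whether these were separate animals, so every test below measures the spread between these libraries. Stage, hours in culture and any change of medium went together and cannot be told apart.

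SREBP-2, made from Srebf2, mainly drives the genes of cholesterol synthesis and uptake, and SREBP-1, made from Srebf1, mainly those of fatty acid synthesis. Both are made as membrane proteins that the escort protein Scap carries to the Golgi for cleavage when sterols run low, while Insig1 and Insig2 hold Scap in the endoplasmic reticulum when sterols are plentiful. The released fragments bind sterol regulatory elements beside target genes, often together with the CCAAT-binding factor NF-Y, and Insig1 is itself a target. Dividing cells use the products for new membrane, and muscle cells rebuild their surface membrane as they fuse.

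The binding motifs of the pathway were searched in the genes' start-site sequence. RefSeq start-site windows of build GRCm38.p6, running from 250 bases before to 50 bases after a start, were found for 24 of the 31 genes (32 windows). Fdps, Fdft1, Sqle, Stard4, Npc1, Scd1 and Scd2 had none. The sterol regulatory element was searched as TCACNCCAC, the NF-Y box as CCAAT and the E-box as CACGTG, on both strands and with overlapping matches counted. TCACNCCAC occurred in 1 of the 24 genes (4.17%), Hmgcs1, and in 1.44% of the 27025 genes with a window. CCAAT occurred in 20 of 24 (83.3%) against 41.1% of all genes, and CACGTG in 6 of 24 against 8.09% of all genes. These shares describe the letters in the windows and were not tested.

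The 150 bases before 4 start sites are printed 5′ to 3′ from RefSeq GRCm38.p6, with matches to TCACNCCAC or to CCAAT on either strand in capitals. Hmgcs1 (chr13:119690201-119690350, plus strand) is shown as the gene with a match to TCACNCCAC. Fasn (chr11:120824548-120824697, minus strand) is shown because its RNA differed between the labels at 48 h, and its capitals include 2 CCAAT matches on opposite strands that overlap. The Srebf1 pieces (chr11:60220628-60220777, minus strand, and chr11:60210472-60210621, minus strand) lie before the 2 first exons whose transcripts are compared further on.
Hmgcs1: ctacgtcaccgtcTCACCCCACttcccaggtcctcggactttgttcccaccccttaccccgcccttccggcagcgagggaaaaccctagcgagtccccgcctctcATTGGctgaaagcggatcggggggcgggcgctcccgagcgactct
Fasn: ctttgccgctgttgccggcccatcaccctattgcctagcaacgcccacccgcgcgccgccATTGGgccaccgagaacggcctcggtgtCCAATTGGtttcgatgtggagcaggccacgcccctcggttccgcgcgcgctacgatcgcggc
Srebf1 upstream start: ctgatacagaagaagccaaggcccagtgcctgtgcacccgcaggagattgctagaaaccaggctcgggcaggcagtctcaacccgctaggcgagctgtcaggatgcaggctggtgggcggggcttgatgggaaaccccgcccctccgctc
Srebf1 downstream start: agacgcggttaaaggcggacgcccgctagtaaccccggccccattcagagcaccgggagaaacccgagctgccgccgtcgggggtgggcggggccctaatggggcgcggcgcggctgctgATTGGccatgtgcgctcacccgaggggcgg
In Hmgcs1 the TCACNCCAC match began 137 bases before the start and a CCAAT match on the other strand 45 bases before it. In Fasn the CCAAT matches began 90, 62 and 59 bases before the start. The printed piece at the downstream Srebf1 start held 1 CCAAT match, and the piece at the upstream start held no match to either pattern. Only exact matches were searched, so sterol elements of another sequence would be missed. A piece without a match is therefore not shown to lack such an element.

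Libraries held 16168131 to 30742634 estimated counts. Values per library are given as CPM, depth-scaled counts after TMM normalization between libraries, which compare a gene with itself across libraries. Levels of different genes are compared only as the deposited TPM, which also scale for transcript length. A gene was called where edgeR's quasi-likelihood test gave an adjusted p under 0.05 over all genes tested, and a log2 fold change is given with its standard error (SE). Glud1 RNA, the check of the labels, was at 192, 191 and 184 CPM in WT and 190.0, 185 and 186 CPM in Glud1KO-labelled myoblasts, and it was not called at any stage (log2 fold changes -0.02, -0.09 and -0.02). With each transcript's effective length in each library entered as an offset it was called lower at all 3 (log2 fold changes -0.26, -0.31 and -0.34). A deletion of part of a gene need not lower its RNA, and the deposited file names carry KO in both sets, so the libraries are called KO-labelled throughout. The muscle identity was borne out by 7 muscle markers, whose summed level was 2129.7 to 2390.0 CPM in WT myoblasts and 34586 to 39699 CPM in WT differentiated myotubes. The 7 adipocyte markers summed to at most 1.73 CPM in any library, with Adipoq at most 0.0457 and Cidec at most 0.0666 CPM.

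Per transcript length, the stearoyl-CoA desaturase Scd2 was the most abundant of the 31 in WT differentiated myotubes, at 809 ± 57.9 TPM (mean ± SD, n = 3). Fdps, which makes farnesyl diphosphate, followed at 343 ± 16.5 TPM, then Scd1 at 139.9 ± 17.5, Idi1, the isopentenyl diphosphate isomerase, at 122 ± 5.59, and Hmgcs1, the HMG-CoA synthase, at 120.2 ± 3.35 TPM. The levels of Scd1, Idi1 and Hmgcs1 lay close together, and those of Idi1 and Hmgcs1 differed by less than their SD. At the low end stood the cholesterol exporter Abca1 at 0.215 ± 0.187 TPM, the fatty acid elongase Elovl6 at 2.18 ± 0.275 TPM and the sterol carrier Stard4 at 9.46 ± 1.58 TPM. In WT myoblasts the order was different, with Fdps at 70.6 ± 1.69 TPM, Srebf2 at 70.0 ± 7.36 TPM and the fatty acid synthase gene Fasn at 57.01 ± 6.28 TPM below Scd2 at 113 ± 2.29 TPM. Fdps is among the genes whose level is uncertain, since 85.7% of the 31-base words of its main transcript also occur in other genes, mostly Gm43738. The share was 50.5% for Acat2 (Acat3), 47.5% for Fdft1 (mostly Ctsb) and 31.99% for Idi1 (mostly Gm13502), and at most 17.6% for the other 27. Mvd, Ggps1, Fdft1, Cyp51, Tm7sf2, Srebf1 and Npc1 each overlap another protein-coding gene with reads of its own, and the sources used here do not say whether strand was used in counting.

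Between proliferating myoblasts and differentiated myotubes, the route to cholesterol rose nearly as a whole in WT cells. Of the 31 genes, 25 rose, 3 fell and 3 were not called, in a comparison where 85.0% of all genes tested were called, 42.4% higher and 42.6% lower. The median log2 fold change was 1.31 over the 31 and 0.02 over all genes tested. All 11 genes from squalene to cholesterol rose, with log2 fold changes from 0.21 in Sqle, the squalene epoxidase, to 2.95 in Tm7sf2, a sterol C14-reductase. Of the 8 mevalonate and isoprenoid genes, 7 rose, led by Fdps (log2 fold change 2.48 ± 0.05 (SE), edgeR adjusted p = 3.34e-26), Idi1 (4.61-fold higher) and Mvd, the mevalonate diphosphate decarboxylase (2.15). Ggps1, which turns farnesyl into geranylgeranyl diphosphate, was the exception and was not called (log2 fold change -0.06 ± 0.06 (SE), edgeR adjusted p = 0.363).

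The fatty acid genes did not move as one. The desaturases Scd1 (log2 fold change 3.72 ± 0.06 (SE), edgeR adjusted p = 5.69e-28) and Scd2 (3.04) rose, by 13.2-fold and 8.23-fold. Over the same step Elovl6 fell (log2 fold change -2.09 ± 0.07 (SE), edgeR adjusted p = 4.06e-20), and Fasn fell slightly (log2 fold change -0.18 ± 0.06 (SE), edgeR adjusted p = 0.0051). The Fasn call was lost without WT myoblasts replicate 3 (log2 fold change -0.12), without WT differentiated myotubes replicate 2 (-0.12), and with the effective-length offset (-0.04). Among the regulators, Insig1 (2.00), Insig2 (1.31), Srebf1 (1.29) and Srebf2 (0.48) rose, while Scap fell (log2 fold change -1.17 ± 0.05 (SE), edgeR adjusted p = 2.4e-18). Of the transport genes only Npc1, which moves cholesterol out of lysosomes, was called (1.01), with Stard4 at -0.04 and Abca1 at -0.03 not called. The 5 proliferation markers summed to 1072 to 1112 CPM in WT myoblasts and 20.98 to 26.2 CPM in WT differentiated myotubes. The smooth muscle and pericyte markers went from 38.2 to 42.1 CPM to 1.90 to 2.36 CPM, and the fibroblast markers from 7.61 to 8.22 CPM to 1.09 to 2.23 CPM. The satellite cell markers, mostly Cdh15, went from 436 to 455 CPM to 792 to 902 CPM, although Pax7 and Myf5 among them were lower at 48 h. The part of the end of division and of these markers in the changes was not tested. In bulk RNA, fewer cells of a kind and less RNA per cell cannot be told apart. Scaling by library size alone moved the median of all genes to -0.23, and with it Sqle turned to -0.04 and was not called.

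**Figure D1:**
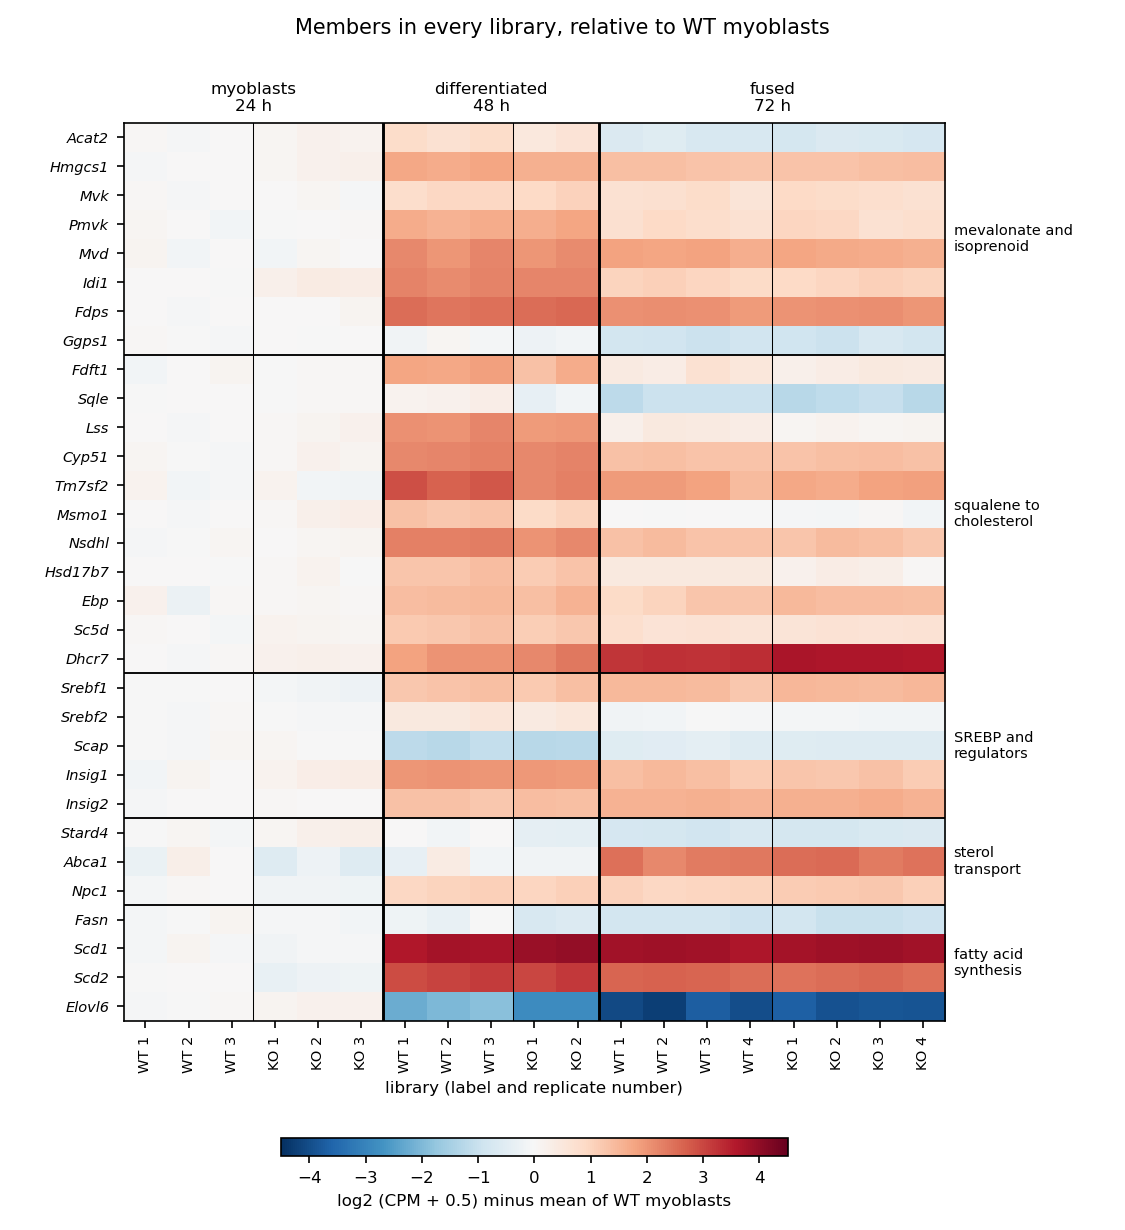
Each of the 31 genes in each of the 19 libraries, as log2 of CPM plus 0.5 minus the mean of the 3 WT myoblast libraries (red higher, blue lower), with rows grouped by role and columns by stage, label and replicate. The 48 h columns are red for most rows of the 2 sterol synthesis blocks. Most of these rows are paler again at 72 h, while Dhcr7 is redder and Acat2, Sqle and Ggps1 are blue. Elovl6 is blue at 48 and 72 h.

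From differentiated to fused WT myotubes most of the pathway turned down. Of the 31 genes, 24 fell, 4 rose and 3 were not called, against 75.1% of all genes called, 37.7% lower and 37.4% higher. The median log2 fold change was -0.66 over the 31 and -0.01 over all genes. All 8 mevalonate and isoprenoid genes fell, from -0.21 in the mevalonate kinase Mvk to -1.46 in Acat2, which joins acetyl-CoA units. Of the 11 squalene-to-cholesterol genes 10 fell, most in Lss, which closes the sterol rings (log2 fold change -1.77 ± 0.05 (SE), edgeR adjusted p = 1.69e-21). The 4 that rose were Abca1 (2.98), Dhcr7, the last reductase of the route (1.32), Scap (0.64) and Insig2 (0.29). Srebf1 (0.10), Npc1 (-0.01) and Scd1 (0.06) were not called. Over this step the summed proliferation markers went from 20.98 to 26.2 CPM to 5.11 to 7.12 CPM. The fibroblast markers went from 1.09 to 2.23 CPM to 3.24 to 3.93 CPM. The satellite cell markers, mostly Cdh15, went from 792 to 902 CPM to 539.7 to 586.7 CPM, although Myf5 among them was higher at 72 h. The muscle markers overlapped in their sum. The part of these markers in the changes was not tested.

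Over both steps a rise followed by a fall was the commonest WT course, seen in 20 of the 31 genes and in 17.5% of all genes tested, among them 7 of mevalonate synthesis and 10 of the squalene-to-cholesterol steps. Only Dhcr7 and Insig2 rose at both steps, a course of 16.9% of all genes tested. Only Fasn and Elovl6 fell at both, a course of 16.2% of all genes tested. The later fall did not undo the earlier rise in most. From myoblasts to fused myotubes 22 genes were higher, 8 were lower and 1 (Msmo1) was not called, with 85.5% of all genes called, 42.2% higher and 43.4% lower. The median log2 fold change was 0.99 against -0.01 over all genes. The largest rises were those of Scd1 (13.7-fold higher), Dhcr7 (9.87-fold higher) and Abca1 (7.70-fold higher, log2 fold change 2.95), and the largest falls those of Elovl6 (20.1-fold lower), Sqle (2.05-fold lower) and Ggps1 (1.85-fold lower). With the effective-length offset the Abca1 change was 2.10 in log2, below that of Scd2 (2.55), and Abca1 was still called. Srebf2 was called lower by a small amount (log2 fold change -0.09 ± 0.04 (SE), edgeR adjusted p = 0.0464), a call that was lost or turned in 14 of 27 alternatives, with log2 fold changes from -0.41 up to 0.20 with the effective-length offset.

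**Figure D2:**
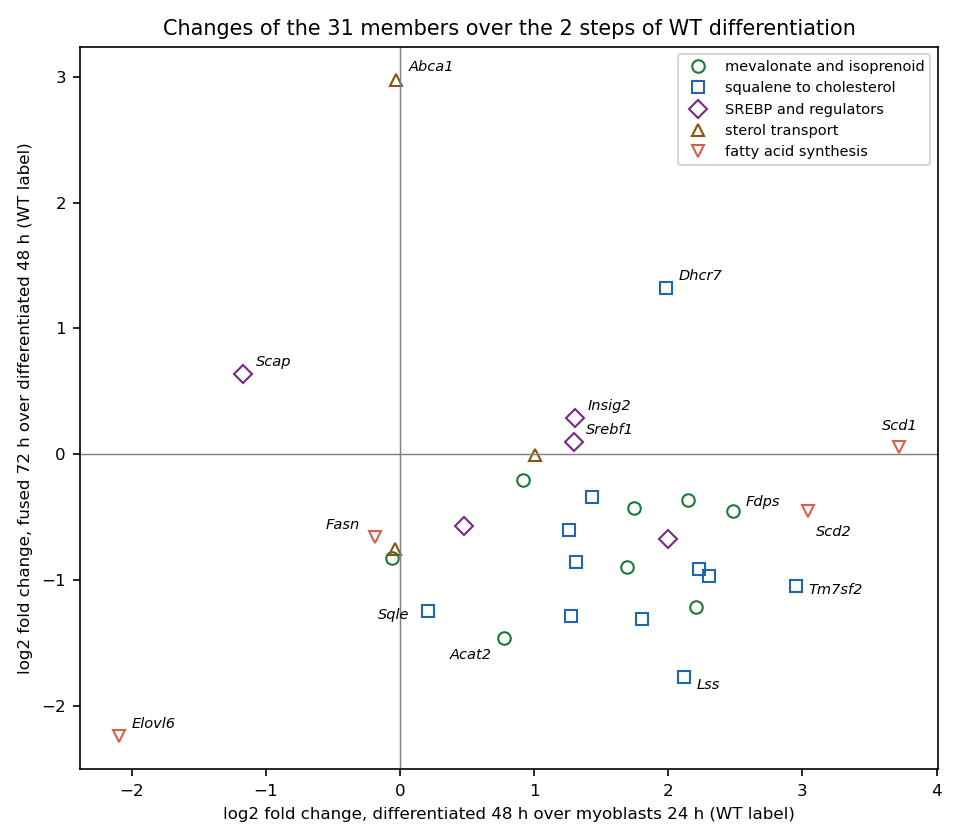
Log2 fold change of each gene in WT cells from 24 to 48 h (horizontal axis) against that from 48 to 72 h (vertical axis), 1 point per gene, with the symbol showing its role. Most points lie to the right of 0 and below it, with Elovl6 at -2.09 and -2.24, Dhcr7 at 1.98 and 1.32, and Abca1 at -0.03 and 2.98 apart from them; both axes share the 48 h libraries, so their errors are linked.

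Insig1 stood at 35.2, 41.7 and 38.9 CPM in the WT and 43.2, 47.1 and 48.5 CPM in the KO-labelled myoblasts. At 48 h, Insig1 stood at 153, 156 and 153 CPM (WT) and 152 and 146 CPM (KO-labelled). At 72 h, Insig1 stood at 99.9, 105, 98.1 and 85.1 CPM (WT) and 91.9, 90.4, 96.5 and 86.05 CPM (KO-labelled). Insig1, the sterol-sensing anchor that is also an SREBP target, was lowest in myoblasts and highest at 48 h, with no overlap between stages under either label. The WT rise was 4.00-fold (log2 fold change 2.00 ± 0.06 (SE), edgeR adjusted p = 3.63e-21). Between the labels the myoblast values lay apart, with the KO-labelled ones higher (log2 fold change 0.27 ± 0.07 (SE), edgeR adjusted p = 0.00862), and that call was lost without WT myoblasts replicate 1 or without KO-labelled myoblasts replicate 3 (lowest log2 fold change 0.20). At 48 h they lay just below the WT values without a call (log2 fold change -0.05 ± 0.06 (SE), edgeR adjusted p = 0.622), and at 72 h the labels overlapped. The WT libraries gave Srebf2 values of 197, 191 and 208 CPM at 24 h, 268, 271 and 292 CPM at 48 h and 179.6, 181, 194 and 194 CPM at 72 h. For Srebf2 the KO-labelled libraries gave 195, 189.9 and 189.7 CPM at 24 h, 260.4 and 283 CPM at 48 h and 188, 186, 184 and 180.4 CPM at 72 h. Srebf2 was highest at 48 h under both labels, 1.39-fold above WT myoblasts, and its label groups overlapped at 24, 48 and 72 h.

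Myoblast values of Srebf1 were 70.3, 70.8 and 72.8 CPM under the WT label and 66.2, 63.8 and 61.4 CPM under the KO label. Differentiated myotubes held Srebf1 at 166, 174 and 184 CPM (WT) and 162 and 183 CPM (KO-labelled). Fused myotubes held Srebf1 at 197, 195, 191 and 166 CPM (WT) and 199.7, 197, 189.9 and 200.1 CPM (KO-labelled). Srebf1 rose from 24 to 48 h under both labels and, under the KO label, again to 72 h (log2 fold change 0.19). That last call was lost with the effective-length offset (0.05) and without KO-labelled differentiated myotubes replicate 1 (0.10), and as deposited TPM the 2 stages overlapped. The gain from WT myoblasts to WT fused myotubes was 2.62-fold (log2 fold change 1.39 ± 0.05 (SE), edgeR adjusted p = 3.51e-19). The lowest fused value, in WT replicate 4, overlapped the WT values at 48 h. The KO-labelled myoblasts lay below the WT ones without overlap, a difference that was not called (log2 fold change -0.16 ± 0.06 (SE), edgeR adjusted p = 0.0747).

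Srebf1 is known to start from 2 first exons, the upstream one giving the SREBP-1a form and the downstream one SREBP-1c, the form that prevails in liver, fat and muscle. Transcript Srebf1-201 begins at the upstream exon (chr11, base 60220604, minus strand) and Srebf1-207 at the downstream one (base 60210465), beside the promoter pieces printed above. In WT libraries Srebf1-201 took 73.8% ± 2.91 (SD, n = 3) of the gene's estimated counts at 24 h, 52.6% ± 1.17 (n = 3) at 48 h and 45.3% ± 10.1 (n = 4) at 72 h. Srebf1-207 took 12.7% ± 3.02, 24.5% ± 1.96 and 28.2% ± 2.44. The upstream transcript held the larger mean share at each stage, and the share of the downstream transcript was higher in every 48 h and 72 h library than in any myoblast library. As CPM, Srebf1-207 was at 7.72 to 11.8 in WT myoblasts, 38.7 to 46.6 at 48 h and 45.3 to 60.7 at 72 h. Srebf1-201 was at 51.5 to 54.2, 84.9 to 98.5 and 62.5 to 111 CPM, so both transcripts were higher in every 48 h and 72 h WT library than in any WT myoblast library. The KO-labelled shares ran the same way, with Srebf1-207 at 10.97% ± 3.69 (n = 3), 24.9% ± 3.24 (n = 2) and 29.8% ± 2.75 (n = 4). Another transcript, Srebf1-203, starts inside a shared exon and varied most at 72 h, from 21.4 to 72.01 CPM in WT. The transcripts share most of their sequence, so these shares are the quantifier's estimates, and no test was run on them.

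**Figure D3:**
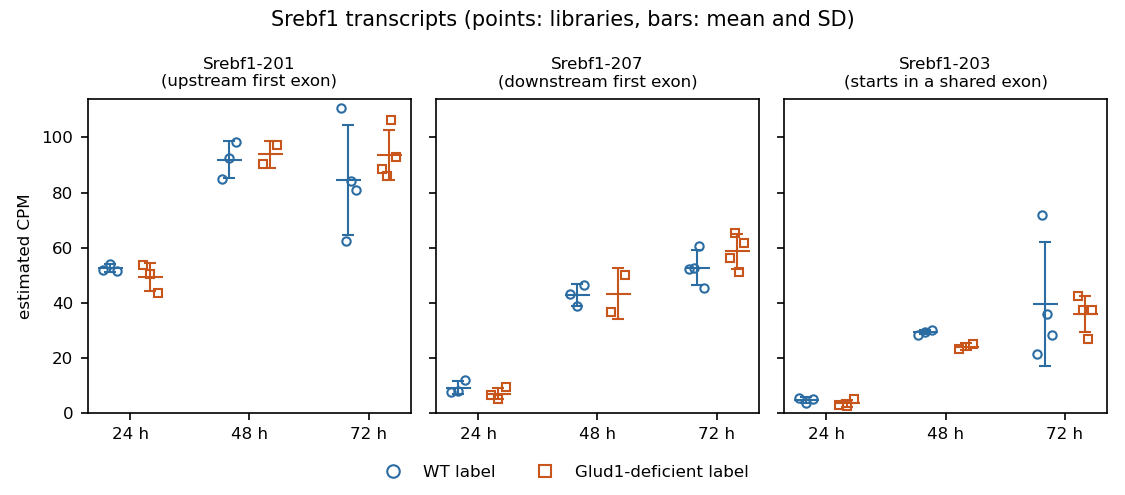
Estimated CPM of 3 Srebf1 transcripts by stage (horizontal axis, hours), with a point per library, circles for WT and squares for the Glud1-deficient label, and bars for the mean and SD. The downstream transcript Srebf1-207 runs from 7.72 to 11.8 CPM in WT myoblasts to 45.3 to 60.7 CPM in WT fused myotubes, and its points under the 2 labels overlap at each stage. Those of Srebf1-203 lie apart at 48 h, at 28.4 to 30.2 CPM in WT and 23.2 to 24.9 CPM in KO-labelled libraries.

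Tm7sf2 stood at 3.69, 2.94 and 3.14 CPM in the WT and 3.70, 2.94 and 2.88 CPM in the KO-labelled myoblasts. At 48 h, Tm7sf2 stood at 27.5, 23.1 and 25.5 CPM (WT) and 16.3 and 17.6 CPM (KO-labelled). At 72 h, Tm7sf2 stood at 13.8, 13.8, 12.6 and 9.52 CPM (WT) and 12.04, 11.4, 12.6 and 13.1 CPM (KO-labelled). Tm7sf2, the sterol C14-reductase, was the sterol gene with the steepest WT rise to 48 h, and it was lower in both KO-labelled libraries than in all 3 WT libraries at that stage (log2 fold change -0.58 ± 0.11 (SE), edgeR adjusted p = 0.000278), a 1.497-fold difference. At 24 and 72 h the labels overlapped. Part of Tm7sf2 overlaps Vps51 on the same strand, although none of the 31-base words of its main transcript were shared. The WT libraries gave Dhcr7 values of 18.0, 17.03 and 18.2 CPM at 24 h, 64.1, 73.1 and 73.4 CPM at 48 h and 168, 178, 173 and 183 CPM at 72 h. For Dhcr7 the KO-labelled libraries gave 20.5, 20.6 and 20.4 CPM at 24 h, 81.1 and 93.3 CPM at 48 h and 231, 228, 227 and 219 CPM at 72 h. Dhcr7, which makes cholesterol from 7-dehydrocholesterol, climbed at each step under both labels without overlap between stages. It was higher under the KO label at all 3 stages, 1.29-fold in fused myotubes (log2 fold change 0.37 ± 0.04 (SE), edgeR adjusted p = 2.82e-07). At 24 h the call was lost or turned in 9 of 27 alternatives, among them without any 1 of the 6 myoblast libraries. The difference was not called at any stage once effective transcript lengths entered as an offset (log2 fold changes -0.04, 0.16 and 0.28).

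Myoblast values of Sqle were 61.4, 62.8 and 63.3 CPM under the WT label and 62.3, 65.2 and 65.3 CPM under the KO label. Differentiated myotubes held Sqle at 69.2, 70.9 and 76.3 CPM (WT) and 48.5 and 57.7 CPM (KO-labelled). Fused myotubes held Sqle at 27.4, 31.5, 31.9 and 31.4 CPM (WT) and 26.2, 27.8, 30.4 and 26.2 CPM (KO-labelled). Sqle encodes squalene epoxidase, a slow step of the route and a classical SREBP-2 target. It rose slightly from 24 to 48 h in WT, lower at 48 h in both KO-labelled libraries than in any WT library (log2 fold change -0.44 ± 0.07 (SE), edgeR adjusted p = 1.54e-05), and low under both labels at 72 h. Msmo1 stood at 37.02, 35.1 and 36.8 CPM in the WT and 37.7, 42.7 and 44.97 CPM in the KO-labelled myoblasts. At 48 h, Msmo1 stood at 92.2, 83.8 and 88.04 CPM (WT) and 66.7 and 72.4 CPM (KO-labelled). At 72 h, Msmo1 stood at 36.7, 35.7, 36.8 and 35.6 CPM (WT) and 35.3, 34.3, 37.9 and 33.6 CPM (KO-labelled). Msmo1, a methylsterol oxidase, was highest at 48 h and overlapped its myoblast values again in WT fused myotubes. Its KO-labelled values were higher in myoblasts (log2 fold change 0.20 ± 0.06 (SE), edgeR adjusted p = 0.0206) and lower at 48 h (log2 fold change -0.34 ± 0.06 (SE), edgeR adjusted p = 0.000113), without overlap at either stage, and overlapped at 72 h. The 24 h call was lost without WT myoblasts replicate 2 or 3 or KO-labelled myoblasts replicate 2 or 3, and neither difference was called with the effective-length offset (log2 fold changes 0.20 and -0.28).

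The WT libraries gave Ggps1 values of 38.4, 36.7 and 35.4 CPM at 24 h, 32.96, 38.8 and 34.4 CPM at 48 h and 20.7, 20.2, 18.6 and 20.1 CPM at 72 h. For Ggps1 the KO-labelled libraries gave 37.1, 36.8 and 37.7 CPM at 24 h, 31.6 and 33.9 CPM at 48 h and 19.4, 18.6, 22.2 and 20.6 CPM at 72 h. Ggps1, at the branch from sterols to protein prenylation, was not called in WT from 24 to 48 h and then fell, with the labels overlapping at each stage. Its fall over both WT steps was 1.85-fold (log2 fold change -0.88 ± 0.06 (SE), edgeR adjusted p = 1.12e-13). Stard4 stood at 22.5, 24.2 and 21.1 CPM in the WT and 23.7, 26.2 and 27.5 CPM in the KO-labelled myoblasts. At 48 h, Stard4 stood at 22.6, 20.8 and 22.6 CPM (WT) and 17.01 and 16.4 CPM (KO-labelled). At 72 h, Stard4 stood at 13.3, 12.8, 12.3 and 13.6 CPM (WT) and 12.9, 12.7, 13.97 and 14.3 CPM (KO-labelled). Stard4, a carrier of cholesterol between membranes and a known SREBP-2 target, was not called in WT from 24 to 48 h and fell to 72 h. Both KO-labelled libraries at 48 h were below the 3 WT ones (log2 fold change -0.40 ± 0.08 (SE), edgeR adjusted p = 0.000433), a call lost with the effective-length offset (log2 fold change -0.41). Myoblast values of Abca1 were 0.527, 1.04 and 0.802 CPM under the WT label and 0.344, 0.589 and 0.36 CPM under the KO label. Differentiated myotubes held Abca1 at 0.474, 1.13 and 0.669 CPM (WT) and 0.642 and 0.629 CPM (KO-labelled). Fused myotubes held Abca1 at 6.67, 5.20, 5.98 and 6.06 CPM (WT) and 6.71, 7.01, 5.92 and 6.39 CPM (KO-labelled). Abca1, which exports cholesterol and is a known target of LXR, was low until 48 h. It was higher in every fused library than in any earlier one. From WT myoblasts to WT fused myotubes it rose (log2 fold change 2.95 ± 0.20 (SE), edgeR adjusted p = 9.24e-14, and 2.10 with the effective-length offset). The labels overlapped at each stage.

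Fasn stood at 261, 275 and 303 CPM in the WT and 267, 267 and 258 CPM in the KO-labelled myoblasts. At 48 h, Fasn stood at 241, 224 and 273 CPM (WT) and 171 and 183 CPM (KO-labelled). At 72 h, Fasn stood at 159, 158, 159 and 147 CPM (WT) and 157, 139, 139 and 145 CPM (KO-labelled). Fasn, the multi-enzyme synthase of palmitate, was lower at 72 h than earlier under both labels. At 48 h both KO-labelled libraries were below all WT ones, by 1.39-fold (log2 fold change -0.48 ± 0.07 (SE), edgeR adjusted p = 6.7e-06), while at 24 and 72 h the labels overlapped. The WT libraries gave Scd1 values of 29.4, 34.6 and 30.3 CPM at 24 h, 386, 431 and 420.1 CPM at 48 h and 441, 447, 433 and 401 CPM at 72 h. For Scd1 the KO-labelled libraries gave 28.2, 30.0 and 29.9 CPM at 24 h, 475 and 493 CPM at 48 h and 430.4, 453, 459 and 432 CPM at 72 h. Scd1, which puts the first double bond into stearate, was 13.7-fold above its WT myoblast level at 72 h. At 48 h the KO-labelled libraries were the higher ones (log2 fold change 0.23 ± 0.05 (SE), edgeR adjusted p = 0.00211), a call lost with the effective-length offset (log2 fold change 0.30, adjusted p = 0.0645), and as deposited TPM the values overlapped (128, 132 and 159.9 in WT, 151 and 164 in KO-labelled libraries). At 24 and 72 h the labels overlapped. Myoblast values of Elovl6 were 33.1, 33.7 and 35.6 CPM under the WT label and 37.6, 38.9 and 39.1 CPM under the KO label. Differentiated myotubes held Elovl6 at 6.88, 8.01 and 8.91 CPM (WT) and 4.33 and 4.40 CPM (KO-labelled). Fused myotubes held Elovl6 at 1.60, 1.33, 2.16 and 1.69 CPM (WT) and 2.196, 1.78, 1.92 and 1.86 CPM (KO-labelled). Elovl6, which lengthens palmitate to stearate, fell at each step without overlap between stages. It showed the largest difference between labels at 48 h among the 31, with no overlap, 1.83-fold lower in the KO-labelled libraries (log2 fold change -0.87 ± 0.12 (SE), edgeR adjusted p = 4.12e-06). In myoblasts the KO-labelled values lay above the WT ones without a call (log2 fold change 0.17 ± 0.06 (SE), edgeR adjusted p = 0.0527), and at 72 h the labels overlapped.

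**Figure D4:**
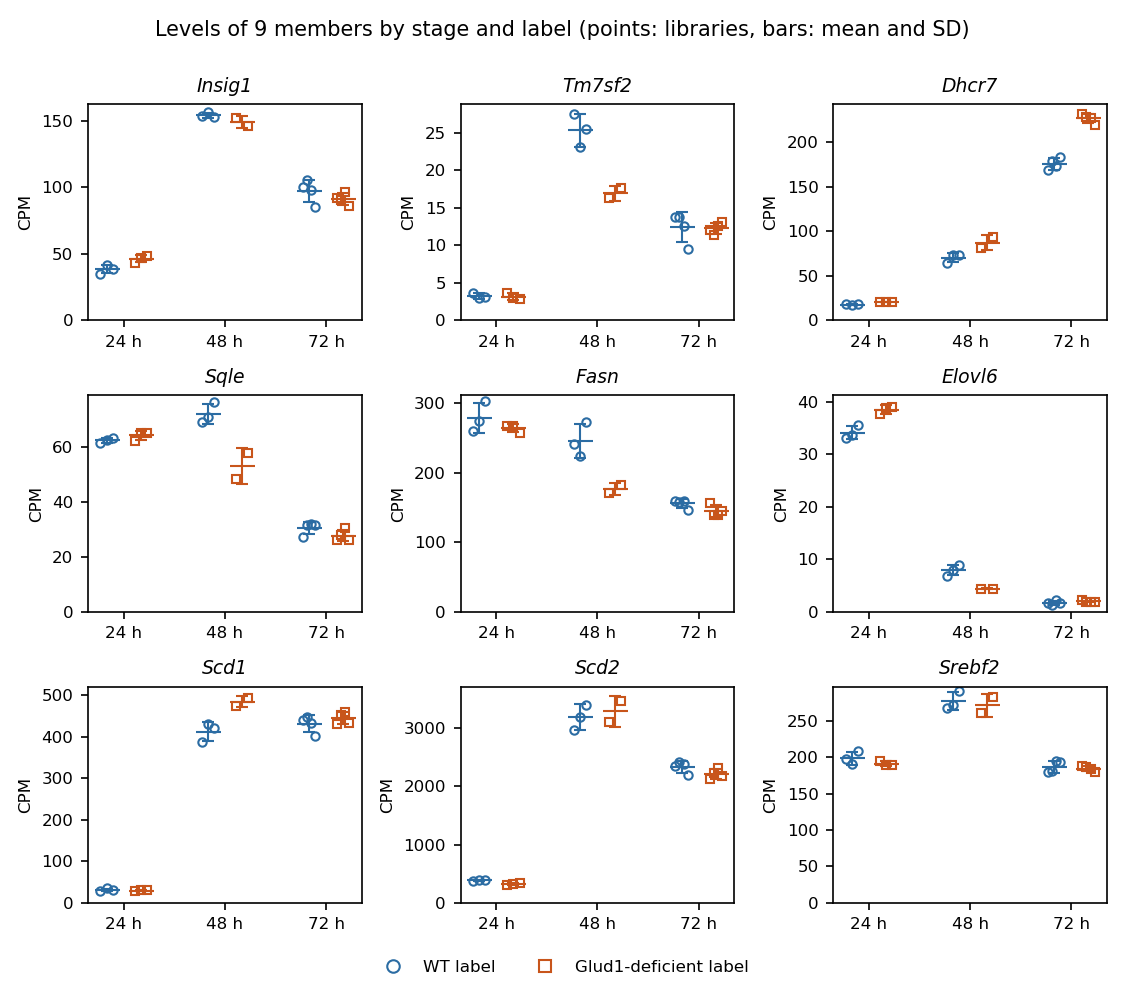
CPM of 9 of the genes by stage (horizontal axis, hours), with a point per library, circles for WT and squares for the Glud1-deficient label, and bars for the mean and SD. At 48 h the squares of Tm7sf2, Sqle, Fasn and Elovl6 lie below the circles and those of Dhcr7 and Scd1 above them, while Srebf2 overlaps at every stage.

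In proliferating myoblasts a few sterol genes were slightly higher under the KO label. Of the 31 genes 6 were higher and 2 lower, with 11.6% of all genes tested called, 4.86% higher and 6.69% lower. The higher ones were Idi1 (log2 fold change 0.32 ± 0.05 (SE), edgeR adjusted p = 0.0001), Insig1 (0.27), Dhcr7 (0.21), Msmo1 (0.20), Stard4 (0.20) and Hmgcs1 (0.17), and the lower ones Scd2 (log2 fold change -0.25 ± 0.05 (SE), edgeR adjusted p = 0.00237) and Npc1 (-0.17). Idi1 was at 40.05, 39.9 and 38.8 CPM in WT and 46.8, 50.9 and 50.4 CPM in KO-labelled myoblasts, and Scd2 at 383, 392 and 387 and 311, 329 and 337 CPM, with no overlap in either gene. The median log2 fold change was 0.04 over the 31 and 0.01 over all genes. Idi1 and Scd2 were called in all 27 alternatives and the other 6 were not; the count fell to 2 without KO-labelled myoblasts replicate 3, to 4 without KO-labelled replicate 2 or WT replicate 3, to 5 without WT replicate 1 or 2, and to 4 with the effective-length offset. The muscle markers summed to 2129.7 to 2390.0 CPM in WT and 1740.0 to 1800.4 CPM in KO-labelled myoblasts, the proliferation markers to 1072 to 1112 and 1185 to 1223 CPM, the 3 smooth muscle and pericyte markers, nearly all Rgs5, to 38.2 to 42.1 and 31.9 to 34.4 CPM, and the 5 fibroblast markers, mostly Ly6a, to 7.61 to 8.22 and 4.42 to 5.56 CPM. Their part in these differences was not tested.

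In differentiated myotubes the balance was the other way, with 11 of the 31 genes lower under the KO label and 2 higher. Among all genes tested 25.2% were called, 14.1% lower and 11.0% higher. The lower genes included 6 of the 11 squalene-to-cholesterol steps, namely Tm7sf2 (-0.58), Sqle (-0.44), Msmo1 (-0.34), the squalene synthase gene Fdft1 (-0.28), Nsdhl (-0.19) and Lss (-0.17). Acat2 (-0.21) and Hmgcs1 (-0.13) at the head of the route, Stard4, Fasn and Elovl6 made up the rest, and Dhcr7 (0.31) and Scd1 (0.23) were the 2 higher ones. None of the 5 regulator genes was called, with log2 fold changes from -0.08 in Scap to 0.08 in Insig2. Stard4, at -0.40, lay just under the size of 0.4 used to choose genes for full listing, and Sqle, at -0.44, just over it. The median over the 31 was -0.07, against -0.01 over all genes.

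Sqle, Tm7sf2, Fasn and Elovl6 were called lower in all 27 alternatives run for the 48 h comparison, and the other 9 calls were not kept in all of them. The Hmgcs1 call was lost in 14 of them. The count of 13 fell to 8 without KO-labelled differentiated myotubes replicate 1, which leaves a single KO-labelled library assumed to vary like the others, and to 6 with the effective-length offset. The proliferation markers summed to 20.98 to 26.2 CPM in the WT and 8.88 to 9.02 CPM in the KO-labelled differentiated myotubes, while the muscle markers overlapped in their sum, mostly Myh3 and Acta1 (34586 to 39699 and 35283 to 39843 CPM). Within that list Myod1 was lower in both KO-labelled libraries (645 and 668 CPM) than in any WT one (869, 769.8 and 804 CPM), and Mymk was higher (1999 and 2229 against 1659.5, 1754 and 1828 CPM). The fibroblast markers summed to 1.09 to 2.23 CPM in WT and 0.588 to 0.943 CPM in KO-labelled libraries, without overlap. The 3 satellite cell markers overlapped in their sum (792 to 902 and 815 to 953 CPM), but Pax7 was at 10.2, 10.4 and 11.3 CPM in WT and 5.08 and 6.19 CPM in KO-labelled libraries, and Myf5 at 67.8, 63.5 and 58.5 CPM in WT and 55.2 and 55.1 CPM in KO-labelled ones. The part of these markers in the 48 h results was not tested.

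In fused myotubes 3 of the 31 genes were higher and 2 lower under the KO label, with 13.0% of all genes called, 6.32% higher and 6.72% lower. The higher ones were Dhcr7 (0.37), the sterol isomerase gene Ebp (log2 fold change 0.31 ± 0.07 (SE), edgeR adjusted p = 0.00507) and Npc1 (0.16), and the lower ones Lss (log2 fold change -0.24 ± 0.06 (SE), edgeR adjusted p = 0.00463) and Hsd17b7, a sterol ketoreductase (-0.23). No mevalonate, regulator or fatty acid gene was called. Npc1 was called in all 27 alternatives, and the effective-length offset ended the other 4 calls. The median was 0.01 over the 31 and -0.01 over all genes. At 72 h the summed muscle markers (32973 to 36006 CPM in WT, 33259.8 to 34461 CPM in KO-labelled libraries), proliferation markers (5.11 to 7.12 and 5.58 to 6.34 CPM), fibroblast markers (3.24 to 3.93 and 2.30 to 3.33 CPM) and satellite cell markers (539.7 to 586.7 and 517.1 to 540.0 CPM) overlapped. Myf5 was lower in every KO-labelled fused library (99.2, 102, 100.3 and 99.97 CPM) than in any WT one (125, 128, 129 and 118 CPM), as was Myh3 (12280.1, 12515, 12278 and 13027 against 13719.9, 13097, 14183 and 14852 CPM), and the part of these markers in the 72 h results was not tested.

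**Figure D5:**
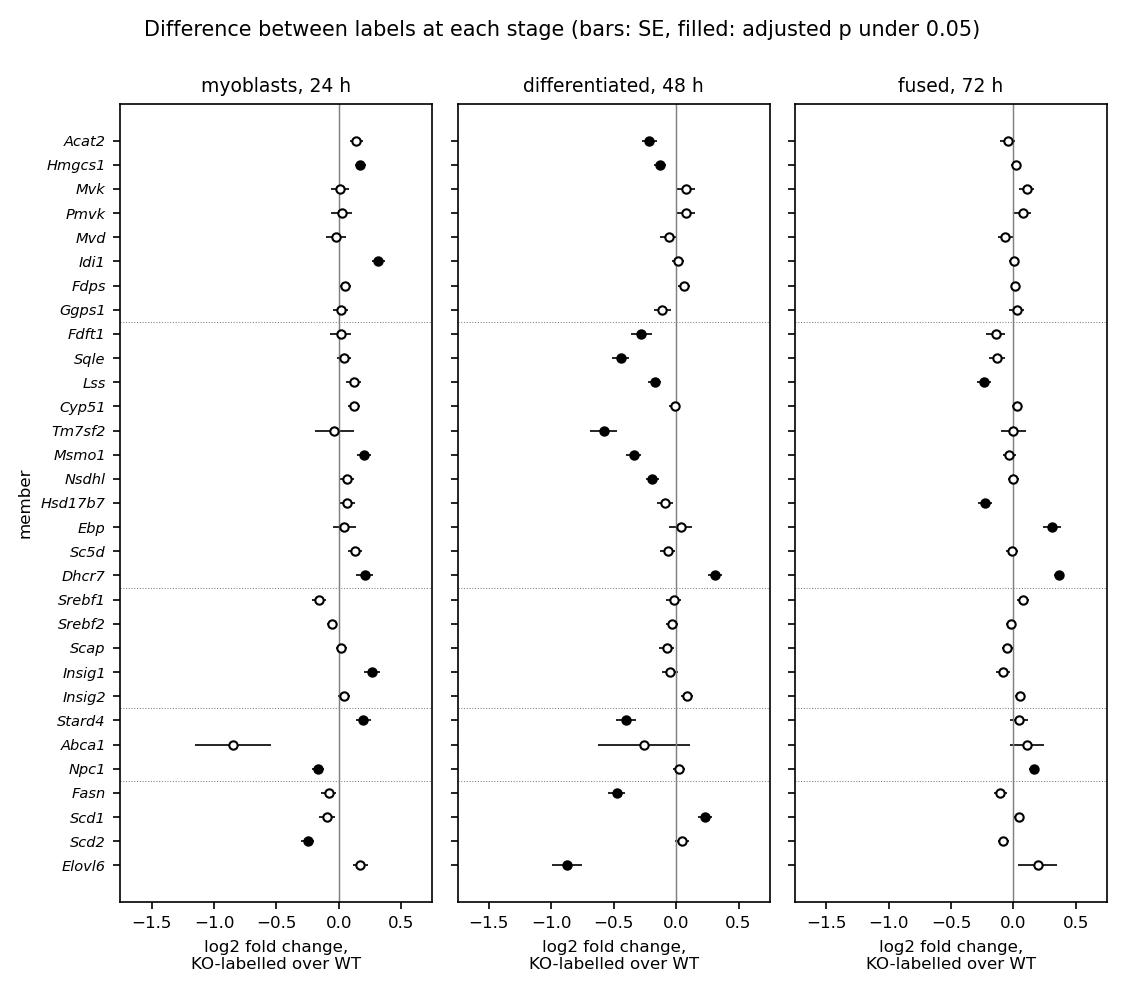
Log2 fold change of each of the 31 genes, KO-labelled over WT (horizontal axis), at 24, 48 and 72 h, with SE bars, filled points where called and dotted lines between roles. At 48 h 11 filled points lie left of 0 and 2 right of it, at 24 h 2 and 6, and at 72 h 2 and 3.

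Whether the change from 24 to 48 h differed between the labels was tested directly, as an interaction. Of the 31 genes 12 gained less or fell more under the KO label and 2 gained more, with 19.1% of all genes called, 11.3% in the first direction and 7.78% in the other. The largest was Elovl6 (difference -1.05 ± 0.13 in log2, edgeR adjusted p = 1.97e-06), followed in adjusted p by Msmo1 (-0.54, 2.6e-05), Stard4 (-0.59, 9.4e-05) and Sqle (-0.48, 0.000207). Scd1 (0.33) and Scd2 (0.30) were the 2 that gained more. Fasn, Tm7sf2, Acat2, Hmgcs1, Idi1, Insig1, Lss and Nsdhl made up the rest, from -0.55 to -0.25. The Tm7sf2 call was lost in 13 of 27 alternatives, with differences from -0.65 to -0.41. As an example, Sqle rose in WT cells (log2 fold change 0.21) and fell in KO-labelled cells (-0.27) over this step. The count was 8 with the effective-length offset, which ended the calls of Msmo1, Stard4, Fasn and Tm7sf2 among others, and 12 to 14 when any 1 library was left out.

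From 48 to 72 h 6 genes differed between the labels, all 6 toward a larger gain or smaller fall under the KO label, with 14.8% of all genes called, 8.27% in that direction and 6.53% in the other. They were Elovl6 (1.07), Tm7sf2 (0.58), Stard4 (0.44), Fasn (0.37), Sqle (0.31) and Msmo1 (0.31), each of which had a lower level under the KO label at 48 h. These 2 interactions share the 48 h libraries, so their opposite signs are not independent. The count fell to 3 without KO-labelled differentiated myotubes replicate 1 and to 1 with the effective-length offset, and rose to 10 with scaling by library size alone. Over the whole span from 24 to 72 h, a contrast in which the 48 h libraries enter through the filter, the normalization and the shared estimate of the spread, 6 genes differed (10.3% of all genes called, 5.75% gaining more and 4.55% less), with Npc1 (0.33) and Srebf1 (0.23) gaining more and Idi1 (-0.31), Lss (-0.35), Insig1 (-0.35) and Hsd17b7 (-0.30) gaining less under the KO label. That count of 6 fell to 3 with the effective-length offset, and the Srebf1 call was lost in 10 of 27 alternatives.

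Within the KO-labelled libraries sterol genes also rose to 48 h and mostly fell to 72 h. From 24 to 48 h 24 genes rose and 6 fell (83.7% of all genes called, 41.3% higher and 42.5% lower), from 48 to 72 h 6 rose and 24 fell (70.2%, 35.8% and 34.4%), and from 24 to 72 h 21 were higher and 8 lower (87.2%, 42.7% and 44.5%). A rise followed by a fall was the course of 19 genes and of 17.3% of all genes tested. A fall at both steps was the course of 5 genes, with Ggps1, Sqle and Stard4 beside Fasn and Elovl6, and of 12.7% of all genes tested. Ggps1 changed by -0.18 and Stard4 by -0.63 over the first KO-labelled step, against -0.06 and -0.04 in WT, and with the effective-length offset the KO-labelled Ggps1 change turned to 0.20; of these 2 differences only that of Stard4 was called as an interaction.

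A further 33 genes of the surroundings of the pathway were listed by function, of which 32 were tested (Abcg1 was not). Between WT myoblasts and WT fused myotubes 16 were higher and 12 lower, with 85.5% of all genes called, 42.2% higher and 43.4% lower. The largest rises were those of Thrsp, a regulator of fat synthesis, from 0 to 0.141 CPM in myoblasts to 7.71 to 11.04 CPM in fused myotubes, and of the acetyl-CoA synthetase gene Acss2 (log2 fold change 4.57 ± 0.09 (SE), edgeR adjusted p = 1.73e-26). The largest falls were those of Soat1, which esterifies cholesterol (log2 fold change -3.78 ± 0.05 (SE), edgeR adjusted p = 3.19e-30), and the desaturase gene Fads1 (log2 fold change -3.42 ± 0.06 (SE), edgeR adjusted p = 1.22e-26). At 48 h 2 of the 32 were higher and 9 lower under the KO label, against 25.2% of all genes called, 11.0% higher and 14.1% lower. The lower ones included 4 of 9 genes of fatty acid supply and desaturation. Fads1 was at 16.2, 13.6 and 17.1 CPM in WT and 9.14 and 9.17 CPM in KO-labelled libraries (log2 fold change -0.78 ± 0.09 (SE), edgeR adjusted p = 3.65e-07), and Fads2, the desaturase of the same route, differed by -0.58 ± 0.09. Both were called in all 27 alternatives. The largest higher values were in Dhdds, for dolichol synthesis (0.39), and Dgat2, for triglycerides (0.28), and the Dgat2 call was lost in 6 of 27 alternatives.

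In myoblasts 1 of the 32 was higher under the KO label, Soat1 (log2 fold change 0.20 ± 0.04 (SE), edgeR adjusted p = 0.000453), and 3 were lower, the largest being Gpam (-0.65) and Acss2 (-0.47), with 11.6% of all genes called, 4.86% higher and 6.69% lower. The Acss2 call was lost in 6 of 27 alternatives, among them without WT myoblasts replicate 2 or 3 or KO-labelled myoblasts replicate 1 or 2, with log2 fold changes from -0.59 to -0.34. In fused myotubes 3 were higher, the largest being Lpin1 (1.03) and Dhdds (0.28), and 2 were lower, Gpam (-0.70) and the SREBP-cleaving protease gene Mbtps1 (log2 fold change -0.19 ± 0.04 (SE), edgeR adjusted p = 0.0015), with 13.0% of all genes called, 6.32% higher and 6.72% lower. At 48 h Mbtps1 was lower as well (log2 fold change -0.24 ± 0.05 (SE), edgeR adjusted p = 0.000494).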

How the data were processed

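RNA was prepared with a Qiagen RNeasy micro kit and made into Illumina TruSeq mRNA libraries, per the labels' protocols. The authors used bcl2fastq 2.20, fastp 0.20.0, kallisto 0.46.1 and edgeR 3.36 with build GRCm38.p6, per the submitters' processing notes. The deposited files give, per the file headers, an effective length, an estimated count and a TPM value for each of 121843 transcripts. A transcript-to-gene map is not in those files, so GENCODE M21 was used, which holds 121018 of the identifiers, 120744 with an equal length. The unmatched 825 were left out and held at most 0.507% of counts.

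Estimated counts were summed per gene and rounded, low genes were removed with filterByExpr, and libraries were scaled by TMM. The quasi-likelihood test of edgeR 4.0.16 (R 4.3.3) was fitted to all 19 libraries as 6 groups, so that they share 1 estimate of the spread (biological coefficient of variation 4.03%), with Benjamini-Hochberg adjustment over 15123 genes in each of 12 comparisons. The SE is the log2 fold change over the square root of F. Library depth was 16168131 to 30742634 counts, and replicates differed beyond counting error (chi-square per degree of freedom 2.14 to 7.66). Tested on simulated data for 15123 genes, the label comparisons at 24, 48 and 72 h recovered 78%, 64% and 86% of 50 genes changed by 1.25-fold. The changed genes were drawn from those with a mean count above 50, so recovery of lower genes was not measured. Far fewer genes were changed than were called in the data. Calls among the unchanged genes numbered 12, 12 and 10.

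The members and gene lists were chosen with earlier results of these data known. Values in every library are given for members called between the labels at any stage with a log2 difference of at least 0.4, the 4 interaction calls with the smallest adjusted p, the 3 largest rises and 3 largest falls from WT myoblasts to WT fused myotubes, and Srebf1, Srebf2 and Insig1. Of other pathway genes, the 2 largest rises and 2 largest falls in each such comparison are named. Alternatives were DESeq2 1.42.0 (size factors and its own test), library size alone, no filter or CPM of at least 1, an effective-length offset, a replicate block, only the libraries compared, and each library left out. Shared sequence was counted as 31-base words. RefSeq promoters came from GRCm38.p6.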

Additional observations from a re-analysis of the deposited data

Results flagged for a closer look

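Of 62 groups of 4 fused libraries tested for a value far from the other 3, chance flags about 1 in 20. Mvd in WT fused myotubes replicate 4 stood at 45.95 CPM against 50.3 to 51.2 CPM in the other 3. Sqle in WT fused myotubes replicate 1 stood at 27.4 CPM against 31.4 to 31.9 CPM. Fasn in WT fused myotubes replicate 4 stood at 147 CPM against 158 to 159 CPM.

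The change from 24 to 48 h differed between the labels, by the interaction test, in 14 of the 31 genes, as KO-labelled minus WT log2 fold change. Among mevalonate genes it was -0.36 in Acat2, -0.30 in Hmgcs1 and -0.30 in Idi1. Among the squalene-to-cholesterol genes it was -0.48 in Sqle, -0.29 in Lss, -0.55 in Tm7sf2, -0.54 in Msmo1 and -0.25 in Nsdhl. It was -0.32 in Insig1, -0.59 in Stard4, -0.39 in Fasn and -1.05 in Elovl6, and 0.33 in Scd1 and 0.30 in Scd2. From 48 to 72 h it was 0.31 in Sqle, 0.58 in Tm7sf2, 0.31 in Msmo1, 0.44 in Stard4, 0.37 in Fasn and 1.07 in Elovl6, from contrasts that share the 48 h libraries. From 24 to 72 h it was -0.31 in Idi1, -0.35 in Lss, -0.30 in Hsd17b7, 0.23 in Srebf1, -0.35 in Insig1 and 0.33 in Npc1.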

How the results depend on the processing

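The stage changes held most widely. Of the called genes, 26 of 28 (24 to 48 h), 27 of 28 (48 to 72 h) and 28 of 30 (24 to 72 h) were called in every alternative in WT, and 27 of 30, 24 of 30 and 26 of 29 in the KO-labelled libraries. Between the labels 2 of 8, 4 of 13 and 1 of 5 were, and in the interactions 6 of 14, 1 of 6 and 3 of 6. With the effective-length offset the label comparisons called 4, 6 and 1 genes, and the interactions 8, 1 and 3. Library size alone gave 10 in the interaction from 48 to 72 h. Leaving out 1 library gave 2 to 10, 8 to 13 and 5 each time between the labels at 24, 48 and 72 h, 27 to 28, 28 to 29 and 29 to 30 in WT, 28 to 30, 28 to 30 and 28 to 29 in the KO-labelled libraries, and 12 to 14, 3 to 8 and 4 to 8 in the interactions. Of the members' calls, 7 turned sign. With library size alone they were Sqle from 24 to 48 h in WT (-0.043) and Hsd17b7 from 24 to 72 h in KO-labelled libraries (-0.17). With the offset they were Dhcr7 between the labels in myoblasts (-0.043), Srebf2 from 24 to 72 h in WT (0.20) and, in KO-labelled libraries, Ggps1 from 24 to 48 h (0.20) and Insig2 (-0.035) and Npc1 (-0.0018) from 48 to 72 h. The Srebf2 change from 24 to 72 h in KO-labelled libraries, which was not called, also turned with the offset, to a called 0.24. The cause was not tested.

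Glud1 was called lower in the KO-labelled libraries with the offset at 24 h (-0.26), 48 h (-0.31) and 72 h (-0.34), and with library size alone at 48 h (-0.14). As shares of TPM, Srebf1-201 took 45.8%, 33.4% and 28.6% in WT and 48.9%, 33.1% and 32.2% in KO-labelled libraries at 24, 48 and 72 h, and Srebf1-207 21.02% and 24.2% in WT and 20.5% and 26.9% in KO-labelled libraries at 48 and 72 h.

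Library size alone moved the median of all genes to -0.23 and -0.33 in WT and -0.31 and -0.35 in KO-labelled cells, from 24 h to 48 and 72 h. Same-numbered WT and KO-labelled libraries did not deviate together (r from -0.051 to 0.029 over 9 pairs), so the numbers were not read as pairs. With the replicate block the counts were 8, 12 and 5 between the labels, 28, 29 and 30 in WT, 30, 29 and 29 in the KO-labelled libraries and 14, 7 and 6 in the interactions. The same settings were applied to the other pathway genes after their values were seen. Their count between the labels at 24 h was 1 with the offset and 8 with only the libraries compared, and at 48 h 7 with the offset. Genes at a few CPM or less in some group, such as Thrsp, Lpin1 and Abca1, carry more counting error than abundant ones.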

Other observations

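Glycerolipid synthesis, which uses the fatty acids made by Fasn, Elovl6 and the Scd enzymes, differed between the labels at all 3 stages in Gpam, the mitochondrial enzyme that adds the first acyl chain to glycerol 3-phosphate. Gpam was at 88.3, 89.2 and 86.02 CPM in WT and 54.8, 55.1 and 57.7 CPM in KO-labelled myoblasts. At 48 h it was at 139.6, 138 and 142 and 116 and 119 CPM, and at 72 h at 251, 244, 238 and 255 and 150.2, 149, 153 and 158 CPM. The groups did not overlap at any stage, and Gpam rose with stage under both labels. It was called lower at 24 h (log2 fold change -0.65 ± 0.04 (SE), edgeR adjusted p = 1.71e-12), at 48 h (log2 fold change -0.25 ± 0.04 (SE), edgeR adjusted p = 4.47e-05) and at 72 h (log2 fold change -0.70 ± 0.03 (SE), edgeR adjusted p = 3.76e-15), in every alternative run.

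Lpin1, the phosphatidic acid phosphatase, was at 6.53, 2.73, 2.34 and 5.52 CPM in WT and 8.91, 9.29, 8.43 and 10.1 CPM in KO-labelled fused myotubes (log2 fold change 1.03 ± 0.33 (SE), edgeR adjusted p = 0.0403), and this call was lost in 8 of 27 alternatives. Those were the effective-length offset, DESeq2's own test, and leaving out WT fused myotubes replicate 2 or 3 or any 1 of the 4 KO-labelled fused libraries, with log2 fold changes from 0.54 to 1.29. Dgat2, which adds the last acyl chain of triglycerides, was at 16.5, 16.1 and 17.5 CPM in WT and 18.9 and 21.6 CPM in KO-labelled differentiated myotubes (log2 fold change 0.28 ± 0.10 (SE), edgeR adjusted p = 0.0368).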
